A study of Mus musculus with 8 samples.

Results

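The genes described here are the feeding peptides of the arcuate nucleus, Agrp, Npy, Pomc and Cartpt, and the receptors through which they act, Mc3r, Mc4r, Npy1r, Npy2r and Npy5r. They were taken by name, as a set chosen with earlier results of these data known, and make up 9 of the 34836 gene names on the array. They were read by 10 of its 55681 probes, 1 for each gene and a second for Npy2r. For 8 of the 9 genes the probe stood well above background throughout at least 1 nucleus, and these were tested, whereas Mc4r did not meet this filter.

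Neurons from 3 regions of the mouse hypothalamus were compared on 1-colour arrays. There were 2 samples of the arcuate nucleus (Arc), 3 of the neighbouring ventromedial nucleus (VMH) and 3 of the dorsomedial nucleus, which lies above it (DMH). All samples came from 2-month-old females of the strain Nkx2-1-CreERT2 x Rosa-ZsGreen, so all groups carried the same driver and reporter and only the nucleus differed. The driver makes a tamoxifen-dependent Cre recombinase in cells with an active Nkx2-1 gene, which turns on the green protein ZsGreen, so the design picks neurons of the Nkx2-1 lineage and leaves out others by intent. Green neurons were cut out by laser and pooled, and the labels do not say how many animals a pool held or whether samples share an animal. The p-values thus reflect only how these samples vary, which may be technical in part, and they are too small if a nucleus has samples that share an animal.

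Energy balance is sensed in the arcuate nucleus by a pair of neuron types with opposite actions. AgRP neurons release AgRP, NPY and GABA and drive feeding, whereas POMC neurons cleave alpha-MSH from the POMC precursor and restrain it, and many of them also make CART. Alpha-MSH activates the melanocortin receptors MC3R and MC4R, AgRP blocks them, and NPY acts on the receptors Y1, Y2 and Y5, which couple to inhibitory G proteins.

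The probe sequences are shown because each value below is the signal of a single 60-base oligonucleotide and 3 of the peptide results rest on stretches that can be printed whole. They are given 5′ to 3′ as the array files list them, in lower case.

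Npy: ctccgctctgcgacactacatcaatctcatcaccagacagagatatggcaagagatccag

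Pomc: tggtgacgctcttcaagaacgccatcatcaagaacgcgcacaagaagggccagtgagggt

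Cartpt: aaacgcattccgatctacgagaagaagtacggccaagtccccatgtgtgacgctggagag

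In build mm9, as the array files give it, the Npy probe lay on the forward strand of chromosome 6 between positions 49773743 and 49777505, a span of 3763 bases. The Cartpt probe lay on the reverse strand of chromosome 13 between 100668967 and 100669956, a span of 990 bases. Both spans are longer than the probe, so both probes read across at least 1 splice junction. The Pomc probe lay on the forward strand of chromosome 12 at 3960413 to 3960472 without a gap.

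The probes of Agrp and Mc3r and the second, dimmer Npy2r probe hold the letters AATAAA, which can act as a polyadenylation signal. Windows of 30 bases are shown with these letters in capitals, and where the probes lie within their transcripts was not analysed here.

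Agrp: gcaggggatgagAATAAAggatgggacggt

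Mc3r: tgcttgggagatAATAAAggctttggtttc

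Npy2r, second probe: gagtactgaaaaggAATAAAacaccagaag

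The letters AATAAA occurred in 10.1% of the 55681 probes, and their reverse complement in 3.74%. The Agrp probe lay on the reverse strand of chromosome 8 at 108090600 to 108090659 and the Mc3r probe on the forward strand of chromosome 2 at 172076555 to 172076614. The Npy2r probe used for the tests lay on the reverse strand of chromosome 3 at 82343900 to 82343959 and held no AATAAA. The second Npy2r probe began 1225 bases further along the gene, at 82342675 to 82342734. Npy1r and Npy5r were read on chromosome 8 at 69230632 to 69230691 on the forward strand and at 69204446 to 69204505 on the reverse strand.

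On the arrays 72.4% to 78.7% of probes were well above background, and the 75th percentile of the signal was 1806 to 1818 in Arc, 1866 to 2036 in VMH and 2107 to 3042 in DMH. Overall brightness thus followed the nucleus, and effects of brightness and nucleus that this scaling does not remove cannot be told apart. Levels are log2 of the processed signal over this 75th percentile, so that 0 is the 75th percentile of the array. Such levels compare 1 probe between nuclei and do not rank genes. The nucleus labels were read beside marker genes, whose lists were chosen with earlier results of these data known. They are thus no independent check of the labels. All 6 VMH markers were lower in DMH than in VMH and all 6 DMH markers were higher (limma, adjusted p under 0.05). Fezf1 met the filter through VMH only, and Ebf3, Skor1 and Prdm13 through DMH only, the nuclei where they were high. The summed level of 9 other Arc neuron markers was 50.5 to 50.9 in Arc, 10.2 to 12.2 in VMH and 30.7 to 39.6 in DMH. A lower signal in a pool can come from fewer cells of a type or from less RNA per cell, and these cannot be told apart here.

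The 4 peptide genes were all far higher in Arc. In the comparison of Arc with VMH all 4 peptides passed the test, whereas none of the 4 receptors tested did (limma on all 8 arrays, Benjamini-Hochberg adjusted p under 0.05). Of all 27419 genes, 0.977% passed in this comparison, 0.317% higher and 0.66% lower in Arc. In Arc against DMH, 3 peptides and Mc3r passed, all higher in Arc, beside 0.416% of all genes in either direction, 0.175% higher and 0.241% lower in Arc. When Arc was set against the mean of both other nuclei the 4 peptides passed, beside 0.609% of all genes in either direction, 0.193% higher and 0.416% lower in Arc. These comparisons share the Arc arrays. The median difference of the 8 members was 1.66 for Arc against VMH and 2.46 for Arc against DMH on the log2 scale, beside 0.03 and 0.05 for all genes tested.

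**Figure D1:**
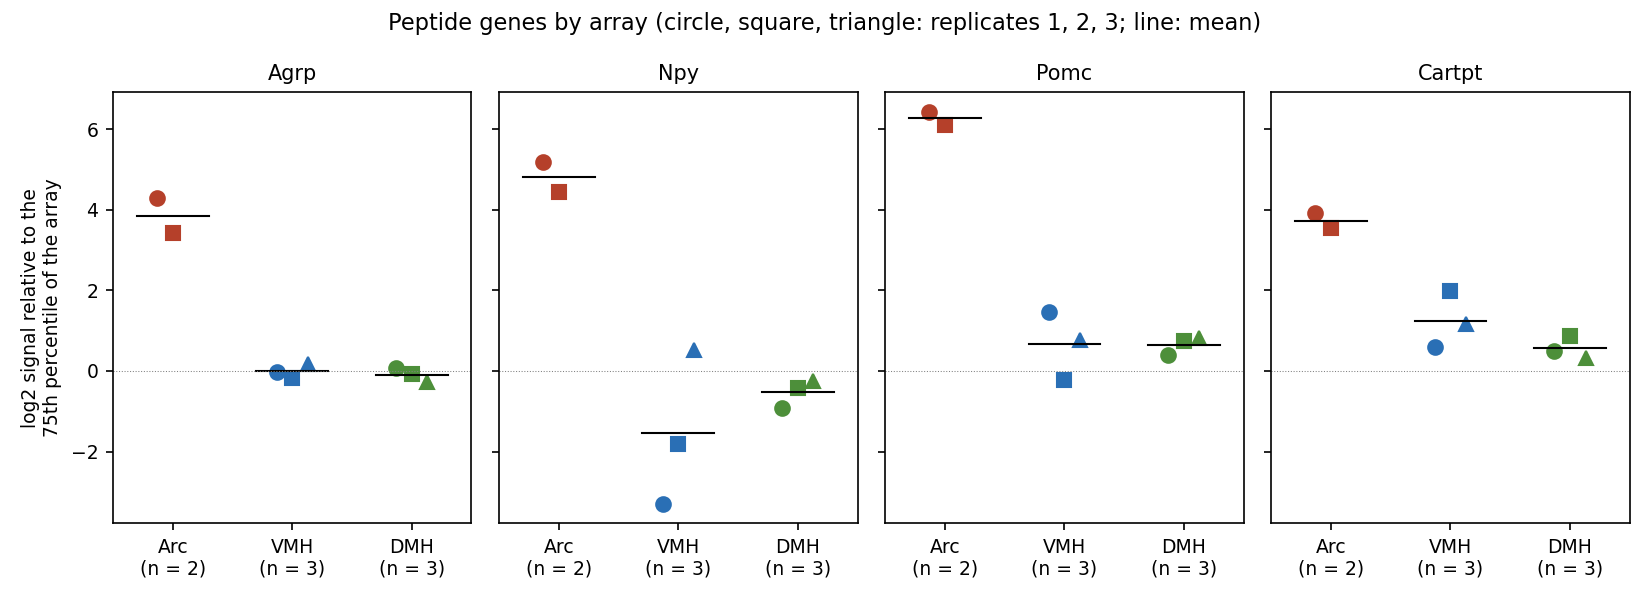
Log2 signal of Agrp, Npy, Pomc and Cartpt on each array, relative to the array's 75th percentile, in Arc (n = 2), VMH (n = 3) and DMH (n = 3). Symbols mark the replicate number and horizontal lines the mean. For each gene both Arc arrays lie above all 6 other arrays, and the share of all genes so separated was not counted. The scatter is widest for Npy in VMH.

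Pomc, the precursor of alpha-MSH and beta-endorphin, had levels of 6.44 and 6.11 in Arc replicates 1 and 2. It measured 1.47, -0.23 and 0.77 in VMH replicates 1, 2 and 3, and 0.40, 0.73 and 0.83 in DMH. Both Arc arrays stood more than 4 log2 units above every other array, and VMH and DMH overlapped. Pomc was 48.7-fold higher in Arc than in VMH (log2 difference 5.61 ± 0.45, SE; limma adjusted p = 0.00302) and 49.1-fold higher than in DMH (5.62 ± 0.45; adjusted p = 0.00576). It ranked 6th of 27419 genes by the size of the increase over VMH and 2nd of 27423 over DMH. DMH and VMH differed by -0.01 (95% interval -0.95 to 0.93; adjusted p = 0.993), so a difference of up to nearly 1 log2 unit either way was not resolved.

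Pomc is also the hormone precursor of pituitary corticotrophs, and a list of pituitary and pars tuberalis markers was read beside it. Of its 10 genes, 4 were kept and none passed the test in any comparison. Their summed level was 2.42 to 2.92 in Arc, 2.43 to 3.16 in VMH and 1.92 to 2.43 in DMH. Prl, Fshb and Pitx1, which mark lactotrophs, gonadotrophs and the pituitary lineage, were not well above background on any array.

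Agrp encodes the antagonist of melanocortin receptors. Its level was 4.28 and 3.42 in Arc. The VMH arrays gave -0.02, -0.18 and 0.17 and the DMH arrays 0.08, -0.08 and -0.27. The Arc arrays were separated from all others, and the VMH and DMH values overlapped within a narrow band around 0. Agrp was 14.5-fold higher in Arc than in VMH (log2 difference 3.86 ± 0.29; limma adjusted p = 0.0025) and 15.4-fold higher than in DMH (3.94 ± 0.29; adjusted p = 0.0041). DMH and VMH differed by -0.08 (95% interval -0.68 to 0.52; adjusted p = 0.921).

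Npy, the orexigenic peptide made by AgRP neurons and by many other neurons of the brain, measured 5.19 and 4.45 in Arc. In VMH it measured -3.29, -1.82 and 0.51 in replicates 1, 2 and 3, and in DMH -0.91, -0.43 and -0.24. Arc was again separated from both other nuclei, but VMH replicate 3 was higher than every DMH array and VMH replicate 1 was lower than every other array. Npy was 81.8-fold higher in Arc than in VMH (log2 difference 6.35 ± 0.93; 95% interval 4.19 to 8.52; limma adjusted p = 0.0277), the 2nd largest increase of 27419 genes. Against DMH the difference was 5.35 ± 0.93 (95% interval 3.18 to 7.51), the 3rd largest of 27423 genes, with an adjusted p of 0.0661.

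The Npy calls depended on single arrays, whose spread enters the error of every comparison. Without VMH replicate 3 or VMH replicate 1, whose Npy values lie furthest apart, the limma adjusted p for Arc against DMH was 0.0195 and 0.0447, at the same difference of 5.35. For Arc against VMH it was 0.109 without Arc replicate 1, 0.0795 without Arc replicate 2 and 0.0804 without VMH replicate 2, and 0.0544, 0.0526 and 0.0573 without DMH replicates 1, 2 and 3.

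Cartpt, the precursor of CART, is made by POMC neurons and by other hypothalamic neurons. Its level was 3.92 and 3.54 in Arc. The VMH arrays gave 0.59, 1.98 and 1.16 and the DMH arrays 0.49, 0.88 and 0.33. All Arc values exceeded all others, and the VMH and DMH values overlapped, with VMH replicate 2 the highest of the 6. The increase was the smallest of the 4 peptides, 5.59-fold over VMH (log2 difference 2.48 ± 0.40; limma adjusted p = 0.0395) and 8.96-fold over DMH (3.16 ± 0.40; adjusted p = 0.0312). DMH was 0.68 below VMH (95% interval -1.51 to 0.15; adjusted p = 0.462).

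The Cartpt calls lay close to the threshold. Without any 1 array except VMH replicate 2, the adjusted p for Arc against VMH was 0.061 to 0.139. For Arc against DMH it was 0.0895 and 0.0734 without Arc replicates 1 and 2, 0.0985, 0.072 and 0.08 without DMH replicates 1, 2 and 3, and 0.0651 without VMH replicate 3.

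**Figure D2:**
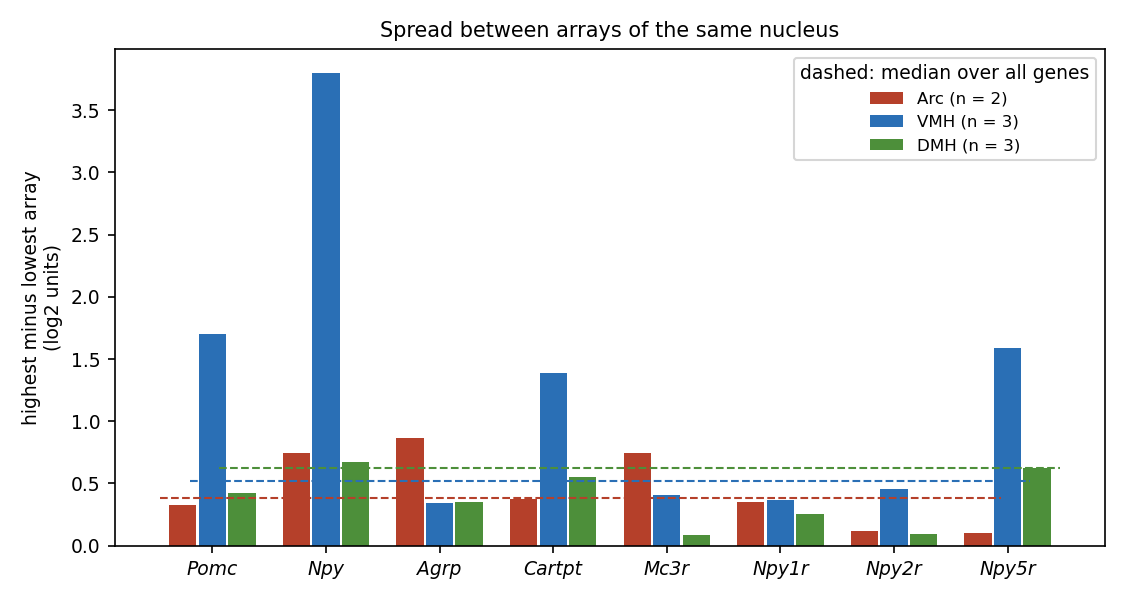
Highest minus lowest log2 level among arrays of the same nucleus for the 8 members tested, with bars for Arc, VMH and DMH from 0 and dashed lines at the median over all genes (0.38, 0.52 and 0.62). The bar for Npy in VMH reaches 3.80, far above the others, while Agrp in VMH stays at 0.34.

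The peptides did not scatter alike within VMH. Npy differed by 3.80 log2 units, or 13.9-fold, between its highest and lowest VMH array, and only 0.391% of all genes had a wider range there. Pomc ranged over 1.70, Npy5r over 1.59 and Cartpt over 1.39, with 6.16%, 7.26% and 9.89% of genes wider. Agrp, which shares its neurons with Npy, ranged over 0.34, less than 69.1% of genes. The array with the highest level differed by gene. It was VMH replicate 3 for Npy, replicate 1 for Pomc, and replicate 2 for Cartpt and Npy5r. In DMH the narrowest ranges were those of Mc3r, 0.09, and Npy2r, 0.10, with 98.2% and 97.8% of genes wider.

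Within Arc, replicate 1 was above replicate 2 for all 8 members tested, whereas 48.6% of all genes were higher in replicate 1. The gap was 0.86 for Agrp, 0.75 for Npy, 0.75 for Mc3r, 0.38 for Cartpt and 0.33 for Pomc, and it was smallest for Npy2r, 0.12, and Npy5r, 0.10. With 2 arrays these gaps were not tested.

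Of the receptors only Mc3r passed a test. It is the melanocortin receptor found on AgRP neurons and on other neurons of the mediobasal hypothalamus. It was 0.53 and -0.22 in Arc and 0.81, 0.40 and 0.67 in VMH. In DMH it was -1.66, -1.58 and -1.57. The DMH arrays were thus all low and close together, and Arc and VMH overlapped. Mc3r was the only member to pass in DMH against VMH, beside 1.23% of all genes in either direction, 0.441% higher and 0.788% lower in DMH. It was 4.70-fold lower in DMH (log2 difference -2.23 ± 0.24; limma adjusted p = 0.00708). It was 3.39-fold higher in Arc than in DMH (1.76 ± 0.27; adjusted p = 0.047), and Arc against VMH gave -0.47 (95% interval -1.09 to 0.15; adjusted p = 0.473).

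The Mc3r difference between DMH and VMH passed under all 20 alternatives tried, with adjusted p between 0.00244 and 0.0401. That between Arc and DMH did not pass without Arc replicate 1 (adjusted p = 0.108), without DMH replicates 1, 2 and 3 (0.125, 0.112 and 0.11) or without VMH replicates 1, 2 and 3 (0.0756, 0.0739 and 0.0933).

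**Figure D3:**
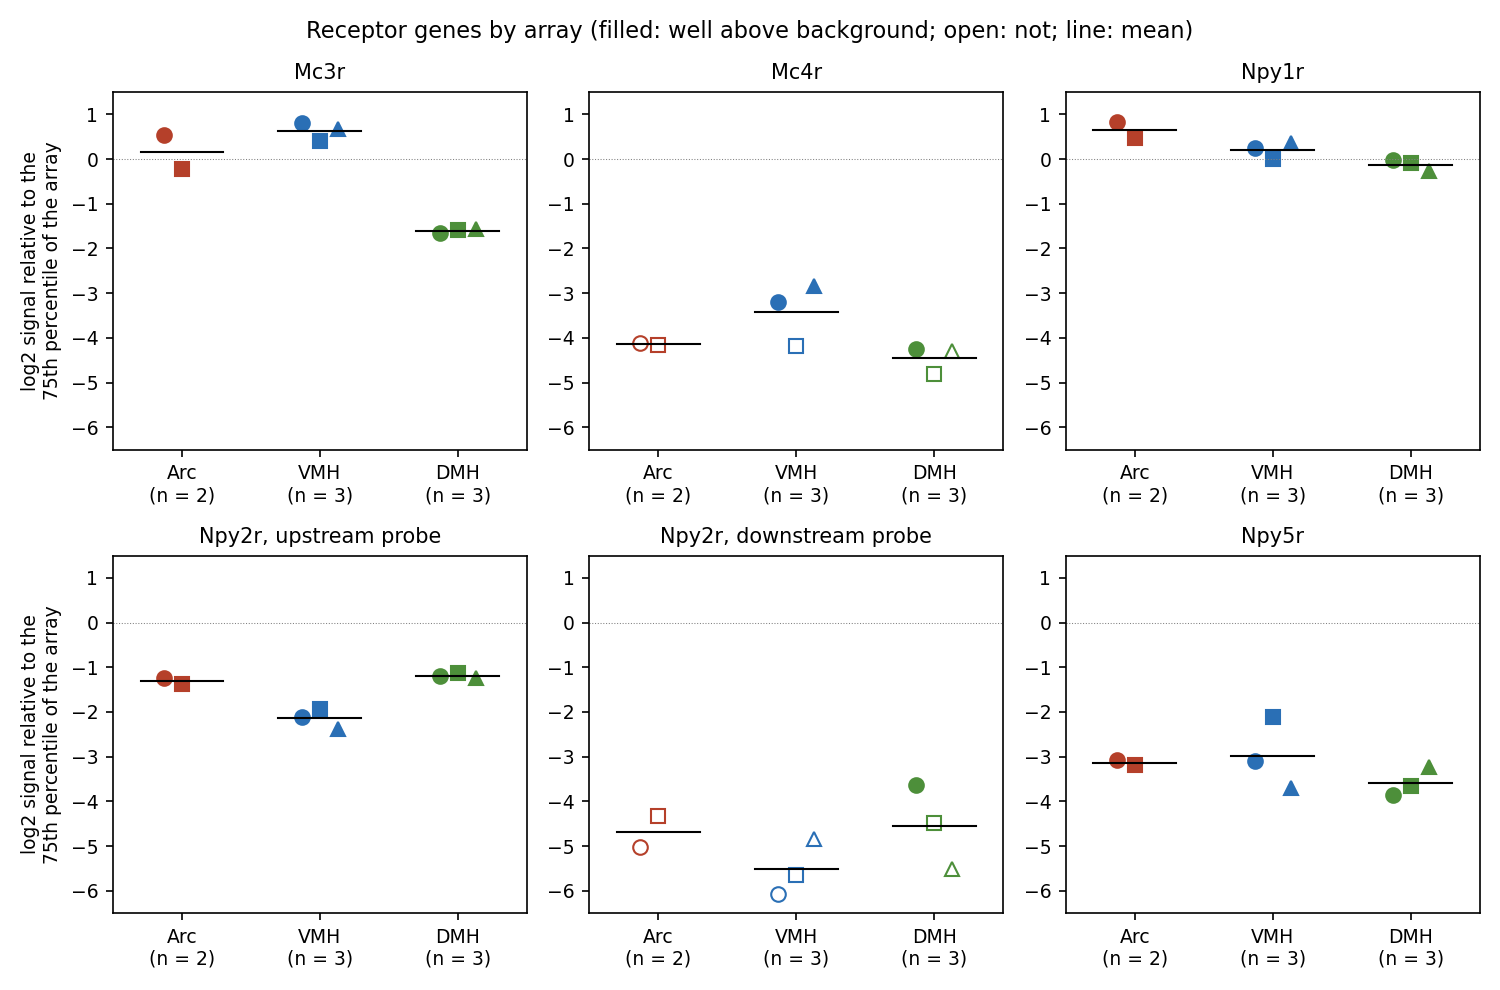
Log2 signal of the receptor genes on each array, relative to the array's 75th percentile, in Arc (n = 2), VMH (n = 3) and DMH (n = 3), with Npy2r shown for both probes. Filled symbols are arrays on which the probe was well above background and open symbols are not, and the 3 DMH values of Mc3r lie together near -1.60.

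Mc4r, the melanocortin receptor through which alpha-MSH mainly restrains feeding, was near the limit of detection. Its probe was well above background on 3 of 8 arrays, VMH replicates 1 and 3 and DMH replicate 1. Levels were -4.11 and -4.16 in Arc, -3.20, -4.19 and -2.85 in VMH and -4.25, -4.82 and -4.29 in DMH. The detected VMH arrays were the highest, while VMH replicate 2 lay among the other nuclei. With no filter on dim probes the adjusted p was 0.552 for Arc against VMH and 0.352 for DMH against VMH (limma), so no difference in Mc4r was detectable.

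Among the NPY receptors none of the 3 passed in any comparison. Npy1r, the postsynaptic Y1 receptor, had levels of 0.83 and 0.48 in Arc, 0.25, 0.00 and 0.36 in VMH and -0.01, -0.10 and -0.27 in DMH. The arrays fell in the order Arc, VMH, DMH, but VMH and DMH nearly touched, at -0.002 for the lowest VMH and -0.014 for the highest DMH array. DMH against VMH gave -0.33 (95% interval -0.79 to 0.13; limma adjusted p = 0.515). The share of all genes with such an order was not counted. The difference was 0.45 for Arc against VMH (95% interval -0.06 to 0.97; limma adjusted p = 0.406) and 0.79 for Arc against DMH (0.27 to 1.30; adjusted p = 0.161).

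Npy2r encodes the Y2 receptor, which acts as an autoreceptor on NPY neurons. The tested probe gave -1.25 and -1.37 in Arc, -2.12, -1.93 and -2.39 in VMH and -1.20, -1.13 and -1.23 in DMH. VMH was below every array of the other nuclei, and Arc lay just below DMH without overlap. The difference was 0.84 for Arc against VMH (95% interval 0.35 to 1.32; limma adjusted p = 0.143) and 0.96 for DMH against VMH (0.52 to 1.39; adjusted p = 0.065), and neither passed. Arc against DMH gave -0.12 (-0.61 to 0.37; adjusted p = 0.815).

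The second Npy2r probe was well above background on 1 array only, DMH replicate 1, at -3.64, so its other values are at or below the limit of detection. As measured they were -5.02 and -4.34 in Arc and -6.08, -5.64 and -4.83 in VMH. The remaining DMH arrays, replicates 2 and 3, gave -4.49 and -5.51. No fold between nuclei is given for it.

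Npy5r, the Y5 receptor gene next to Npy1r on chromosome 8, had levels of -3.08 and -3.19 in Arc, -3.10, -2.12 and -3.71 in VMH and -3.86, -3.65 and -3.23 in DMH. VMH replicate 2 was the highest of all 8 arrays, and VMH overlapped both other nuclei. The differences were -0.16 for Arc against VMH (95% interval -1.17 to 0.85; limma adjusted p = 0.91), 0.45 for Arc against DMH (-0.57 to 1.46; adjusted p = 0.651) and -0.61 for DMH against VMH (-1.51 to 0.30; adjusted p = 0.546). Npy1r and Npy5r thus gave different orders of the group means, with no difference that passed.

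**Figure D4:**
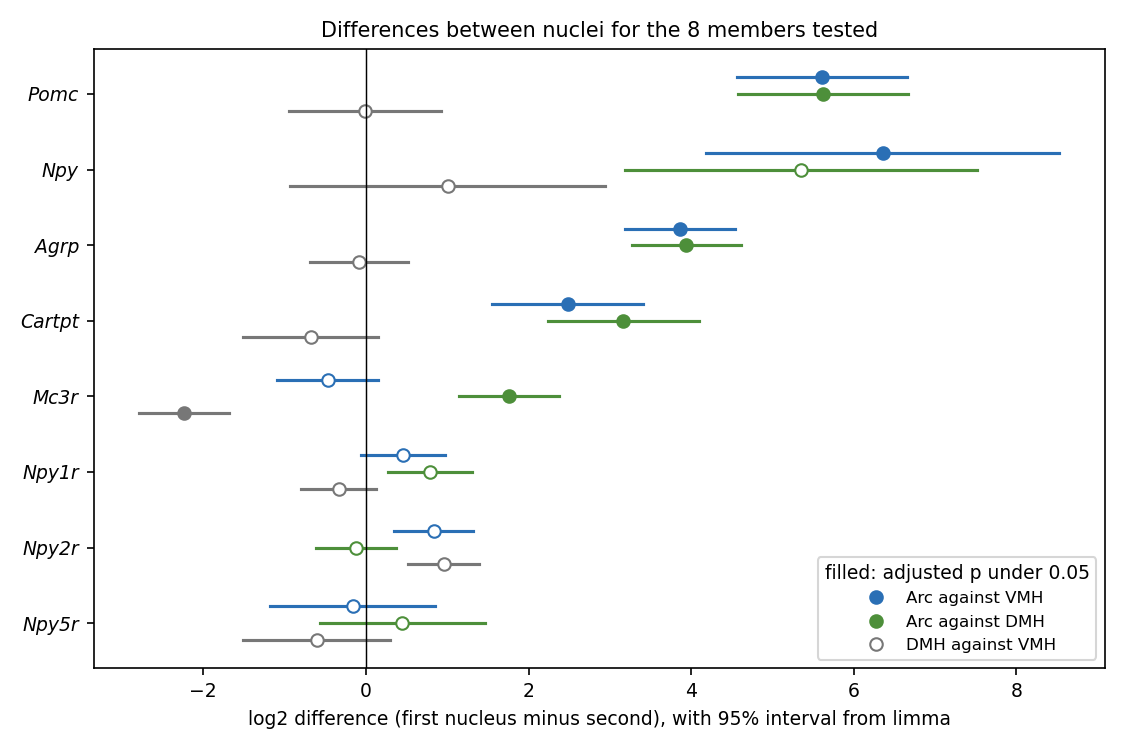
Log2 difference and 95% interval from limma for the 8 members in Arc against VMH, Arc against DMH and DMH against VMH, with filled points for an adjusted p under 0.05. The peptides lie between 2.48 and 6.35 in the comparisons with Arc, and in DMH against VMH only Mc3r, at -2.23, is filled.

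Across the 8 arrays the peptides were high on the same arrays, those of Arc. Pearson's r was 0.979 for Agrp with Pomc, 0.927 for Agrp with Cartpt, 0.923 for Agrp with Npy and 0.892 for Npy with Pomc. Among the receptors Npy1r was the most like the peptides, at 0.853 with Agrp, 0.821 with Pomc, 0.808 with Cartpt and 0.712 with Npy. The other receptors tested lay between -0.083 and 0.449 with the peptides, and Mc3r and Npy2r ran opposite to each other, at -0.761. These values describe 8 arrays of 1 slide in 3 groups, so they mostly restate the group means and carry no test.

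The genes whose pattern over the 8 arrays was most like each member were sought among 3286 genes that varied by at least 2 log2 units. For Agrp they were Col2a1 (Pearson's r = 0.975), Tbx3 (0.970) and Trim67 (0.969), and for Pomc Kiss1 (0.971), Tbx3 (0.968) and Col2a1 (0.957). Npy was closest to Cftr (0.964), Ghrh (0.955) and Pla2g4c (0.950), and Cartpt to Grhl3 (0.973), Socs2 (0.973) and Creb3l1 (0.964). Tbx3, a T-box transcription factor, and the collagen gene Col2a1 were thus named for both Agrp and Pomc. Agrp and Pomc themselves correlated at 0.979, so shared neighbours were likely and are no separate result. Mc3r was closest to Rxrg (0.984), Spock3 (0.979) and Parm1 (0.968), and Npy2r to March4 (0.989), Gabre (0.982) and Gad2 (0.967). Npy1r was closest to Ttc36 (0.957), Ass1 (0.947) and Osm (0.923), and Npy5r to Ankdd1a (0.966), Pcdh12 (0.944) and Cpne2 (0.908).

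Some genes known from AgRP neurons were higher in Arc as well. Of 10 tested, 3 were higher in Arc than in VMH and 1 higher than in DMH, with list medians of 0.99 and 0.98. Asb4, a subunit of ubiquitin ligases, had a mean level of 4.81 ± 0.09 in Arc (SD, n = 2), of 1.47 ± 0.11 in VMH (n = 3) and of 4.05 ± 0.26 in DMH (n = 3). It was higher than in VMH both in Arc (log2 difference 3.35; limma adjusted p = 0.00155) and in DMH (2.59; adjusted p = 0.00269), while Agrp did not pass in DMH against VMH. Otp, a homeobox factor of AgRP neurons, and Sst, the somatostatin precursor, were 2.47 and 2.38 higher in Arc than in VMH (limma adjusted p = 0.0137 and 0.0118). Acvr1c, the activin receptor ALK7, was not well above background on any DMH array and met the filter through Arc and VMH only. It was at least 9.84-fold higher in Arc and at least 5.56-fold higher in VMH than in DMH. The limma adjusted p were 0.0163 and 0.0101 for the measured differences, not for these bounds. The leptin receptor gene Lepr measured -1.55 ± 0.90 in Arc, -2.15 ± 0.93 in VMH and -3.07 ± 0.31 in DMH and did not pass.

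Among genes known from POMC neurons, 4 of 8 were higher and 1 lower in Arc than in VMH, and 3 were higher and 1 lower than in DMH. The list medians were 2.54 and 1.69. Tbx3 had a mean level of 2.82 ± 0.18 in Arc (SD, n = 2), of -1.94 ± 0.06 in VMH (n = 3) and of -1.77 ± 0.73 in DMH (n = 3). It was 27.1-fold higher in Arc than in VMH and 24.2-fold higher than in DMH (limma adjusted p = 0.00302 and 0.00608). Prdm12, a zinc finger factor needed for Pomc expression, was 15.95-fold higher in Arc than in VMH as measured (limma adjusted p = 0.0408). In VMH and in DMH 2 of 3 arrays were well above background, so it met the filter only through Arc, where it was high. Isl1, a LIM homeobox factor that switches on Pomc, was 2.53 higher in Arc than in DMH (limma adjusted p = 0.047). Six6 was 1.55 higher than in VMH and 1.40 higher than in DMH (limma adjusted p = 0.021 and 0.0485).

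Htr2c and Insm1 departed from this pattern. Htr2c, the serotonin receptor through which POMC neurons are excited, measured -0.85 and -1.33 in Arc, 1.29, 1.19 and 1.15 in VMH and 1.75, 1.80 and 1.31 in DMH. It was 4.91-fold lower in Arc than in VMH and 6.53-fold lower than in DMH (limma adjusted p = 0.0105 and 0.00827). Insm1, a zinc finger factor, was not well above background on any VMH array. It met the filter through Arc and DMH only, where it was higher. It was at least 2.58-fold higher in Arc and at least 9.98-fold higher in DMH than in VMH. The limma adjusted p were 0.024 and 0.0032 for the measured log2 differences of 3.52 and 5.47, not for these bounds.

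Of 11 transcription factors and cofactors known to act on the peptide genes, 4 were higher in Arc than in VMH and 2 higher than in DMH, with none lower. Otp, Tbx3 and Isl1 are among them and are counted above as well. Bsx is also among the DMH markers above, so its difference between DMH and VMH is the same observation given again. Bsx, a homeobox factor that acts on Agrp and Npy, was well above background on 1 of 3 VMH arrays and met the filter through Arc and DMH only. It was at least 22.6-fold higher in Arc and at least 35.7-fold higher in DMH than in VMH. The limma adjusted p were 0.0029 and 0.00103 for the measured differences, not for these bounds. Neither Agrp nor Npy passed in DMH against VMH. Hmx3 was 1.22 higher in Arc and 1.34 higher in DMH than in VMH (limma adjusted p = 0.0444 and 0.0202), and Hmx2 was 2.49 higher in DMH (adjusted p = 0.0218). Stat3 and Foxo1, the leptin and insulin effectors, did not pass in any comparison. They differed between Arc and VMH by 0.54 and 0.66.

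Neighbouring Arc populations were read through 9 markers, of which 5 were higher in Arc than in VMH and 2 higher than in DMH. The tachykinin gene Tac2 was 3.99 higher than in VMH, Ghrh 3.24, Kiss1 3.10 and Gal 2.84 (limma adjusted p = 0.0319, 0.00272, 0.0118 and 0.00302). Kiss1 and Ghrh were also the 2 that passed against DMH, by 3.59 and 2.66 (limma adjusted p = 0.00978 for both). Gal was 3.53 higher in DMH than in VMH and Th, which marks dopamine neurons, 1.55 (limma adjusted p = 0.000885 and 0.0387), while Prlr, the prolactin receptor gene, was 1.78 lower in DMH (log2 difference -1.78; adjusted p = 0.00694).

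**Figure D5:**
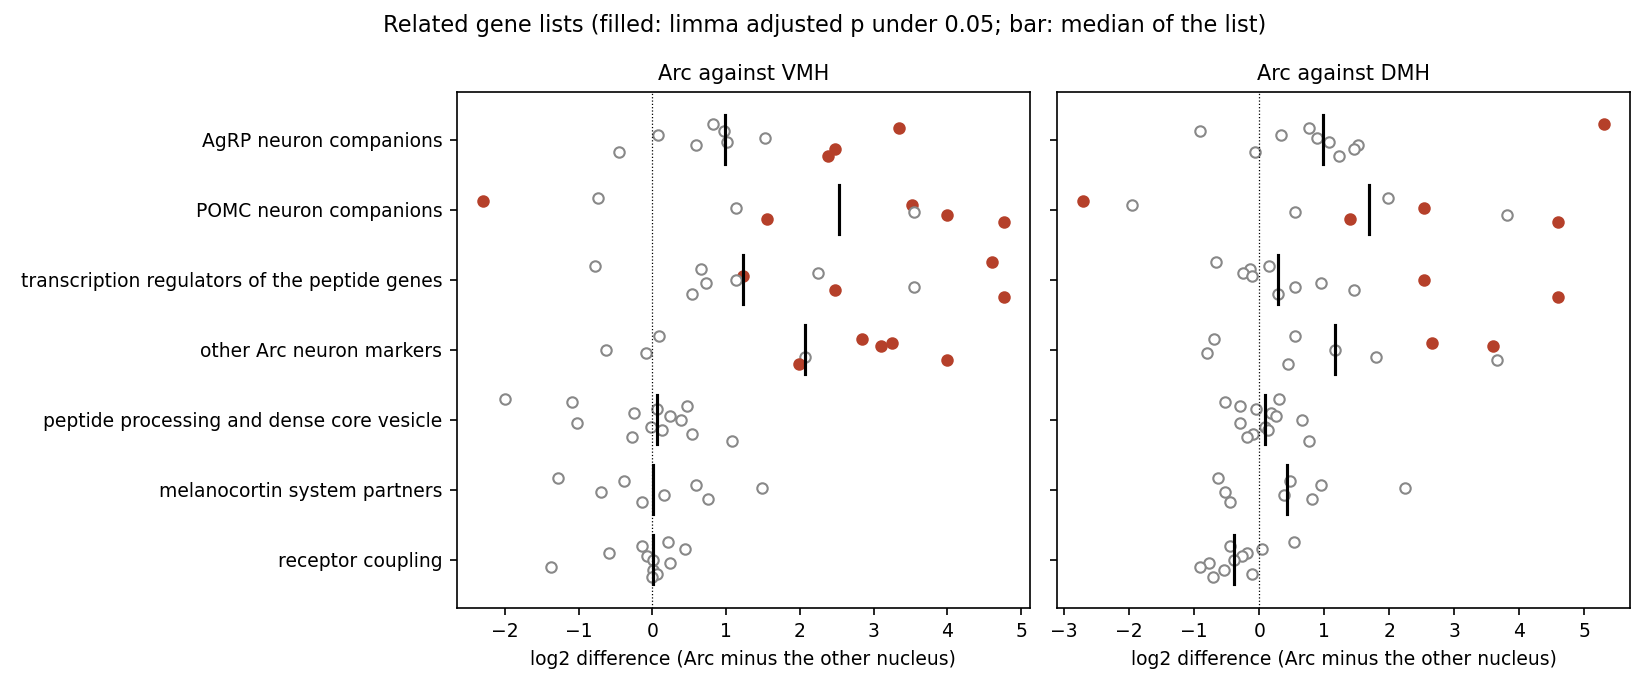
Log2 difference of each gene in 7 related lists, Arc minus VMH on the left and Arc minus DMH on the right, with filled points for a limma adjusted p under 0.05 and a bar at the list's median. Passing genes lie in the upper 4 lists of neuron companions, regulators and Arc markers, and the lower 3 lists of processing, partner and coupling genes hold none.

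The lists of peptide processing, further receptors and receptor coupling held no gene that passed. None of 13 genes of peptide processing and dense core vesicles passed in any of the 4 comparisons, and their median was 0.06 in Arc against VMH and 0.08 in Arc against DMH. Their summed level was 190.3 to 210.5 in Arc, 167.5 to 182 in VMH and 149 to 162.4 in DMH. Pcsk1n gave the largest part of this sum, with mean levels of 7.01, 6.62 and 6.35 in the same order. The sum thus does not stand for all 13 genes, and Pcsk2 and Cadps2 had their highest mean level in VMH. Cpe, which trims the cleaved precursors, had nearly the same mean level throughout, 4.15 ± 0.12 in Arc (SD, n = 2), 4.09 ± 0.04 in VMH (n = 3) and 4.20 ± 0.15 in DMH (n = 3). Pcsk2, a convertase that cuts POMC, measured 2.94 ± 0.54, 3.97 ± 0.33 and 3.24 ± 0.14, and the largest difference in the list was that of Cadps2, -2.29 in DMH against VMH (limma adjusted p = 0.065). At these sample sizes an adjusted p above the threshold does not show that the levels were equal.

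None of 8 other genes of the melanocortin system passed in any comparison. Mrap2, an accessory protein of MC4R, measured 1.53 and 1.65 in Arc, 0.90, 0.66 and 0.96 in VMH and 1.29, 0.49 and 0.56 in DMH. The Arc arrays were the highest, by 0.75 over VMH and 0.81 over DMH on average (limma adjusted p = 0.291 and 0.217). The melanocortin receptor gene Mc5r was well above background on 1 of 3 arrays in VMH and in DMH. It thus met the filter only through Arc, where it was high. As measured it was 2.24 higher in Arc than in DMH (limma adjusted p = 0.12), with most DMH values near the limit of detection. None of 3 further genes of the NPY family passed, among them Dpp4, which trims NPY, at -2.46 ± 0.15, -2.65 ± 0.41 and -2.46 ± 0.11 in Arc, VMH and DMH. None of 11 genes of receptor coupling passed, G proteins, kinase subunits and potassium channels among them, with medians of 0.01 for Arc against VMH and -0.39 for Arc against DMH.

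Several markers of other cells were also highest in Arc, and their part in the results above was not tested. Oxt, the oxytocin precursor of magnocellular neurons, measured 0.77 and -0.11 in Arc, -1.78, -4.13 and -5.12 in VMH and -4.43, -3.84 and -3.55 in DMH, with VMH replicates 2 and 3 not well above background. Both Arc arrays were thus above all others, by 4.01 over VMH and 4.27 over DMH on average (limma adjusted p = 0.0961 and 0.0966). The summed level of 5 markers of lateral, paraventricular and suprachiasmatic neurons, Oxt among them, was 2.78 to 3.87 in Arc, 0.92 to 1.29 in VMH and 1.12 to 3.84 in DMH. None of them passed.

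Among 9 tanycyte and ependymal markers none passed in the comparisons with Arc, but Vim and Nes had their highest mean level there. Vim, an intermediate filament gene of tanycytes and other glia, measured -1.09 and -0.67 in Arc, -3.76, -2.97 and -3.07 in VMH and -6.88, -2.46 and -6.30 in DMH, where only replicate 2 was well above background. It lay 2.39 above VMH and 4.33 above DMH (limma adjusted p = 0.399 and 0.148). Nes, a filament gene of the same cells, measured -3.37 and -3.83 in Arc, and VMH replicate 3, at -3.74, was the only other array on which it was well above background. Crym was lower and Gpr50 higher in DMH than in VMH (-1.83 and 1.39; limma adjusted p = 0.0467 and 0.0228). The sum of the list overlapped between the nuclei, at 2.69 to 3.24 in Arc, 2.84 to 3.22 in VMH and 2.62 to 3.78 in DMH.

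The sum of 5 microglia markers was 27.6 to 28.8 in Arc, 22.6 to 26.4 in VMH and 19.03 to 23.7 in DMH, and none passed. Csf1r makes up most of this sum, with mean levels of 4.65, 4.48 and 4.15 in the same order. C1qa, like Csf1r, had its highest mean level in Arc, whereas Aif1, Cx3cr1 and Tmem119 had theirs in DMH. That of 6 astrocyte markers was 6.34 to 8.36, 6.67 to 10.3 and 10.99 to 11.65 in the same order, and that of 6 oligodendrocyte markers 8.50 to 17.1, 18.0 to 27.7 and 13.7 to 19.9. That of 4 endothelial markers was 0.987 to 1.06, 0.751 to 1.22 and 0.75 to 1.45, and no gene of these 3 lists passed.

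Of 6 neuron markers, which include Nkx2-1, the gene behind the driver, Syt1 was lower in Arc than in VMH and in DMH, by -1.50 and -1.45 (limma adjusted p = 0.0151 and 0.032). Nkx2-1 differed by -0.92 and -1.01 (adjusted p = 0.0915 and 0.0872) and Rbfox3 by -1.45 and -0.80 (adjusted p = 0.135 and 0.315). Snap25, whose signal makes up most of the sum of this list, differed by 0.23 and 0.62 (adjusted p = 0.706 and 0.243). The sum was 234.7 to 241.2 in Arc, 195.4 to 241.7 in VMH and 155.9 to 194.2 in DMH.

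Promoter sequence was read for the peptide genes because they were the members that moved together. The RefSeq promoter table of build GRCm38.p6 held entries for 7 of the 9 members, Agrp and Mc4r not among them. The 250 bases before the start are shown for 3 peptides, 5′ to 3′ on the strand of the gene, with matches in capitals. Both strands were searched for the TATA box TATAAA, the GC box GGGCGG, the homeodomain core TAATTA, the forkhead core TGTTTAC and the CCAAT box. The cyclic AMP response element was searched whole, as TGACGTCA, and by its first part, TGACG, which overlaps it. The STAT motif TTCNNNGAA and the E-box CANNTG were also searched, and E-boxes are not capitalised.

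Pomc, chr12:3954695-3954944, forward strand: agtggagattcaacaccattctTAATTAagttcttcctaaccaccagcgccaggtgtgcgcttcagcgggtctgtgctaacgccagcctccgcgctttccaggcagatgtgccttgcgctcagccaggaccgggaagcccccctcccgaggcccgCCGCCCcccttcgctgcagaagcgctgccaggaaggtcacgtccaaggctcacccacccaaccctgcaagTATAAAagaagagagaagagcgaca

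Npy, chr6:49822460-49822709, forward strand: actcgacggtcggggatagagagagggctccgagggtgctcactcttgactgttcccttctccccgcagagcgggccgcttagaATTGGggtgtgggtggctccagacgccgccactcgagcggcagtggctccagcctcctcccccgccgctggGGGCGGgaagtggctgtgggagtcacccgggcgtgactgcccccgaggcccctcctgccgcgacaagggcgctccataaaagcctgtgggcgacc

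Cartpt, chr13:99900684-99900933, reverse strand: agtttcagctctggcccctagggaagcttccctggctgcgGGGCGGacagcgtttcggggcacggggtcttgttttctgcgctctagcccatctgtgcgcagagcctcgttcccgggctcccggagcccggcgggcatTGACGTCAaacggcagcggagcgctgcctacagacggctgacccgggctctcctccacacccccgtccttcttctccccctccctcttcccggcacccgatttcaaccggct

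The Pomc window held TATAAA beginning 25 bases before the start, a match found in 12.4% of 32851 promoters, and TAATTA at 228 bases, found in 4.84%. The Cartpt window held TGACGTCA at 112 bases, found in 1.55% of promoters. The GC box GGGCGG, found in 32.7%, was the only motif of the search in all 3 windows, at 95 bases in Npy, at 95 in Pomc on the opposite strand and at 210 in Cartpt. The Npy window also held CCAAT on the opposite strand at 166 bases, found in 33.8%. E-boxes, found in 66.2% of promoters, lay at 200 and 147 bases in Pomc and at 161 in Cartpt, with no match in Npy. None of these windows held the STAT motif or the forkhead core. The base composition was 69.2% G and C for Npy, 66.8% for Cartpt and 60% for Pomc, beside a median of 52.4% over all promoters. The matches describe these windows only.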

How the data were processed

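RNA of pooled, laser-dissected neurons was labelled with Cy5 and hybridised to 8 one-colour arrays of 1 slide, per the labels. The deposited values are red-channel spot intensities, made with Agilent Feature Extraction (11.5.1.1 in the submitters' processing notes). Per the file headers the background was subtracted and arrays were not normalized to each other. The deposited flags of outlier spots and of spots well above background were also used, per the file headers. The series value table runs in constant steps after its first 13 entries and was not used.

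From 59305 non-control spots (55681 probes), log2 intensity minus the array's 75th percentile was taken, outlier spots were left out and spots of a probe averaged. Probes were kept where all arrays of at least 1 nucleus were well above background (41502), and the brightest stood for each gene (27435 genes). The model, fitted with limma 3.58.1 in R 4.3.3, had a mean for each nucleus over the 8 arrays (5 residual and 2.78 prior degrees of freedom), with Benjamini-Hochberg adjustment within each of 4 comparisons and a threshold of 0.05. The fit was tested on simulated data. Arrays of the same nucleus correlated at 0.94 to 0.964 and of different nuclei at 0.905 to 0.951, so none was a duplicate.

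The members and the gene lists were chosen with earlier results of these data known. Named were all members, up to 4 passing genes of each list with the largest differences, and the 3 genes most correlated with each member. Cpe, Pcsk2, Cadps2, Lepr, Stat3, Foxo1, Mrap2, Mc5r, Dpp4 and the marker genes were named outside this rule, after their values were seen. Alternatives were normexp background correction (offset 50), other scalings and filters, a floor, averaging the probes of a gene, other variance models, array weights, blocks for replicate number and slide row, the arrays of a pair alone, and each array left out in turn.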

Additional observations from a re-analysis of the deposited data

How the results depend on the processing

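Agrp and Pomc passed in every comparison with Arc under all alternatives run, and Mc3r in DMH against VMH did so too. In Arc against VMH, 2 members instead of 4 passed, Agrp and Pomc, with no filter, with the arrays of the pair alone, with the replicate block and when the slide row was a block. In Arc against DMH the count was 2 with array weights, no filter, the replicate block and the slide row. In Arc against the mean of both it was 2 with array weights, the replicate block and the slide row. With 1 array left out the counts were 2 to 3, 2 to 4 and 2 to 4, and DMH against VMH had a count of 1 throughout. The calls lost were those of Npy and Cartpt and, in Arc against DMH, of Mc3r. Npy passed against DMH with normexp (adjusted p = 0.0125), with the pair alone (0.0134) and with trended, robust eBayes (0.0362). The number of all genes called ran from 72 to 408 in Arc against VMH, 32 to 233 in Arc against DMH, 108 to 497 in DMH against VMH and 40 to 285 in Arc against the mean. Normexp turned 48 higher and 66 lower genes in Arc against DMH into 124 and 109, and 53 and 114 in Arc against the mean into 132 and 153. The cause was not tested.

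Among the members, signs turned only for differences that did not pass. Pomc in DMH against VMH became 0.12 with array weights, 0.000799 with quantile normalization and 0.0314 with the slide row, and ran from -0.46 to 0.39 with 1 array left out. Over the arrays left out, Agrp there ran from -0.17 to 0.0076, and Npy5r ran from -0.53 to 0.27 in Arc against VMH and from -0.0392 to 0.36 in Arc against the mean. Arrays with the same replicate number correlated in their deviations at 0.072 to 0.185 and other pairs at -0.126 to 0.0155, and all 8 arrays correlated best with one of their own number. Deviations were taken from the mean of each nucleus, so they sum to 0 within it. These correlations are therefore not independent of each other, and the 2 Arc arrays mirror each other exactly. The labels do not say that a number marks a shared animal, so the replicate block is an alternative only. With it, 74 genes instead of 268 passed in Arc against VMH, 32 instead of 114 in Arc against DMH, 163 instead of 337 in DMH against VMH and 40 instead of 167 in Arc against the mean. The genes of the related lists were not followed under the alternatives. Signal close to background limits Mc4r and the second Npy2r probe.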
